A study of Mus musculus with 4 samples.

Results

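Gm models are mouse gene models that carry a running number, such as Gm42047, in place of a name. They were examined here as a class in CD4+CD8+ double-positive (DP) thymocytes with and without Chaf1b. The members were chosen by their summed counts: the class took every row of the count table whose gene identifier maps to a symbol made of Gm and digits, that lies on an autosome, and whose counts over the 4 libraries sum to 100 or more. Of 56239 rows in the table, 26502 are Gm models and 23489 of these are autosomal. Of the autosomal models 16184 had no count in any library, 7305 had at least 1, and 1211 reached the sum, or 5.16%. A further 24 models on the X and Y chromosomes reached it and were left out. The counts themselves chose the members, so a model with reads in a single genotype could enter through that genotype alone: 27 members had a WT sum under 50 and 124 had a KO sum under 50. Beside the limit, Gm48621, Gm49502 and Gm8900 were just inside with a sum of 100, and Gm12167, Gm19265 and Gm26397 were just outside with 99.

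RNA was sequenced from DP thymocytes sorted from the thymus of C57BL/6 mice. The 2 WT libraries carry floxed Chaf1b alleles (CHAF1bfloxp/floxp) and no Cre, and the 2 KO libraries carry the same alleles with Cd4-cre, a Cre transgene driven by Cd4 sequences that acts from around the double-positive stage. The labels give neither the age of the mice nor how many gave each library, so a p-value here refers to the spread among these 4 libraries. Chaf1b encodes a subunit of chromatin assembly factor 1, which deposits histones on replicated DNA, and the comparison asks what its loss does to DP transcripts. Only the KO libraries carry Cd4-cre, so loss of Chaf1b and presence of the transgene cannot be told apart here. By Xist and the Y-linked genes, replicate 1 was female and replicate 2 male in both genotypes, so differences are also given within the female pair and within the male pair.

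A Gm number says nothing about function. The class mixes processed pseudogenes, which are messenger RNAs copied back into the genome without their introns, with long noncoding RNAs (lncRNAs), coding genes not yet named, small RNAs, and models of the annotation class TEC, which still await experimental evidence. A processed pseudogene can differ from its parent gene by a few bases or by none. A short read cannot then be assigned to the copy or the parent from sequence alone. Fragments were counted here without strand, so an antisense model and the gene it overlaps cannot be told apart where they share bases, and fragments that aligned to several places or overlapped several genes were left out of the counts. Values of such models are uncertain for that reason.

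The sequences of a few members and of the named genes they resemble show how close these pairs are. For every member the longest annotated transcript was aligned on the same strand to the transcripts of genes with a given symbol, and the best hit with at least 80% identity over at least 50% of the member is called its look-alike. Gm33707 and Eno1, which encodes the glycolytic enzyme enolase, are shown because Gm33707 has counts in KO alone. Capitals mark the bases that differ, 20 in a window of 150 bases at chr3:60770045-60770194 on the minus strand (GRCm38), and identity over the whole alignment of 576 positions was 89.2%.
Gm33707: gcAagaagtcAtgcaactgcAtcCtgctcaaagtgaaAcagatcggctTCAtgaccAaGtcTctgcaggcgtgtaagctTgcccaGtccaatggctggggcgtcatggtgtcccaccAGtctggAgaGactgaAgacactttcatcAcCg
Eno1: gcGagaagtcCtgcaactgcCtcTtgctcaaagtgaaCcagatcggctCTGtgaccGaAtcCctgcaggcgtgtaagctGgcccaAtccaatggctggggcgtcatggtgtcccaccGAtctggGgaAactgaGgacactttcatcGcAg
Gm9522 and Gapdh, the gene of another glycolytic enzyme, are shown because Gm9522 has no count in 1 KO library. They differ at 8 bases of the window chr15:39181252-39181401 on the plus strand, with 85.8% identity overall.
Gm9522: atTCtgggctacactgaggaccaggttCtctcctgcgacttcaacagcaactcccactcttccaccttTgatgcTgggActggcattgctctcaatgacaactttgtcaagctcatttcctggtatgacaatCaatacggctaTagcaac
Gapdh: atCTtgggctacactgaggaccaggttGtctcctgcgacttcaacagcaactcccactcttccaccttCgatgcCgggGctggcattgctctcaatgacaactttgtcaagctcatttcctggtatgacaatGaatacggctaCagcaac
Gm5900 and Lamtor3, which encodes a lysosomal scaffold protein of the mTORC1 pathway, are shown because Gm5900 had the most negative log2 fold change of all members in the planned fit. They differ at 1 base of the window chr7:104950140-104950289 on the minus strand, with 99.5% identity overall.
Gm5900: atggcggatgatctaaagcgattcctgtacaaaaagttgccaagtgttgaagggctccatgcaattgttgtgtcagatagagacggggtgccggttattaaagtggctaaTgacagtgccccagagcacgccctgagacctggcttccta
Lamtor3: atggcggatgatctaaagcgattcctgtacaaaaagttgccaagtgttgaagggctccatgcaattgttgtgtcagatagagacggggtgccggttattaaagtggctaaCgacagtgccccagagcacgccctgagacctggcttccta
Gm10222 stands for the nuclear copies of mitochondrial genes, here of mt-Nd4l, a subunit of respiratory complex I. Its first 150 bases, at chr1:24612551-24612700 on the minus strand, do not differ from mt-Nd4l, so no capital appears.
Gm10222 and mt-Nd4l: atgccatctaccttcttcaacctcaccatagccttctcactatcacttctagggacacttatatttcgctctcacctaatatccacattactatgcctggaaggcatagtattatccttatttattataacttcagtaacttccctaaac

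The libraries held 23215539 (WT replicate 1), 27369874 (WT replicate 2), 24688653 (KO replicate 1) and 21068760 counts (KO replicate 2). Values are given as counts or as CPM, which are counts scaled to library size. Where a library had no count, a true value of up to 3 counts remains possible, or 0.106 to 0.139 CPM depending on the library. That limit covers counting error alone, because reads of the same molecule amplified by PCR count separately. The CPM of Chaf1b itself was 27.9 and 31.7 in WT against 12.2 and 14.8 in KO, with a log2 fold change of -1.15 ± 0.17 (SE) in edgeR's quasi-likelihood test with the replicate number as a term (adjusted p = 0.0172) and an adjusted p of 0.267 without it. KO replicate 1 stood apart from the other libraries: its mitochondrial transcripts took 3.30% of counts against 1.33% to 2.03% elsewhere, and the ribosomal protein genes took 5.02% against 2.91% to 3.66%. DP markers were abundant in all 4 libraries (9 of 9 found, summed levels of 16003 to 20739 CPM). The marker lists of B cells, myeloid cells, dendritic cells, erythroid cells and thymic stroma summed to at most 8.96 CPM in any library. The natural killer and gamma-delta T list (5 markers, Ncr1 at 0 throughout) summed to 24.3 and 18.8 CPM in WT and to 58.5 and 33.3 in KO, nearly all of it Gzma. The liver list (Alb, Apoa1, Ttr, Serpina1a, Fgb) summed to 311 and 67.1 CPM in WT and to 327 and 4.21 in KO. The KO sum was thus slightly higher in replicate 1 and far lower in replicate 2. In the edgeR fit with the replicate number, 1 of the 5 liver markers passed, and 1 of the 5 natural killer and gamma-delta T markers. The part of these lists in the results below was not tested. In bulk RNA, fewer cells of a type and less RNA per cell cannot be told apart.

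The 1211 members were short and weakly expressed, and 716 of them (59.1%) had a single exon. The largest kinds were 459 lncRNAs (205 antisense and 150 intergenic among them), 369 processed pseudogenes and 224 TEC models, followed by 94 protein-coding models, 36 other pseudogenes and 29 small RNAs. They lay on all 19 autosomes. Their exon length ran from 57 to 20036 bases with a median of 1234, and their summed counts from 100 to 31266 with a median of 276. Only 191 summed to 1000 or more counts. Exon bases shared with another gene of the table were found for 346 members, 84 of them on the same strand and 285 on the other strand.

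The class as a whole took about 1 percent of each library, with 0.987% and 0.983% of counts in WT and 0.914% and 0.974% in KO. Both KO shares lay under both WT shares, with a mean difference (KO minus WT) of -0.0415 percentage points, or -0.0115 without KO replicate 1. The exact permutation test over the 4 libraries gave p = 0.333 (two-sided), the smallest value that 2 libraries against 2 allow. Among the 865 members with no shared exon base the order was lost: the shares were 0.734% and 0.732% in WT and 0.730% and 0.750% in KO. The lncRNA members held 0.369% and 0.376% in WT against 0.260% and 0.338% in KO. Processed pseudogenes went the other way, with 0.316% in each WT library against 0.380% and 0.349% in KO.

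A small number of models carried much of the class. The 10 members with the highest mean CPM held 18.3% of all member counts, and they split by kind. Gm42047 (ENSMUSG00000110631), an intergenic lncRNA of 4 exons on chromosome 8 (121833247 to 121841178), had the highest CPM at 408 and 364 in WT and 209 and 303 in KO. Both KO values were below both WT values, but the change did not pass (log2 fold change with the sex term -0.62 ± 0.19, SE; edgeR adjusted p = 0.10). Gm9821, a coding model whose exons overlap Dgkz on the other strand, had 326 and 275 CPM in WT and 217 and 251 in KO. Gm43305, a processed transcript on chromosome 14, had 164 and 217 CPM in WT and 110 and 157 in KO. The nearest tested gene, Abhd4, lies 21806 bases away on the other strand and rose with the sex term (1.77 and 2.29 CPM in WT, 5.38 and 5.18 in KO; edgeR adjusted p = 0.0363). Gm44175, a lncRNA that lies 12598 bases from Cd8a, had 146 and 169 CPM in WT and 109 and 155 in KO. Gm16286, a coding model that shares 457 exon bases with Txnl4a, had 85.6 and 89.1 CPM in WT and 68.1 and 79.5 in KO. In each of these 5 models except Gm44175 the KO values were below both WT values, and none of the 5 passed the test.

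Processed pseudogenes among those 10 had higher values in KO, apart from Gm5518. Gm9794, 99.8% identical to Rpl23 of the large ribosomal subunit, rose from 118 and 114 CPM in WT to 268 and 154 in KO (sex-term log2 fold change 0.81 ± 0.18, SE; edgeR adjusted p = 0.0389). Gm6136, like Rpl6, rose from 76.3 and 76.1 CPM to 169 and 100 (0.77 ± 0.17, adjusted p = 0.0389). In both KO replicate 1 was far above KO replicate 2. Gm9800, like Ptma (prothymosin alpha), had 206 and 197 CPM in WT and 348 and 248 in KO and did not pass (adjusted p = 0.0930). Gm5518, like the chromatin protein gene Hmgb1, had 127 CPM in each WT library and 96.8 and 126 in KO. Per kilobase of exon the order of levels changes, because the pseudogenes are short: Gm9800 had a mean of 743 CPM per kilobase, Gm9794 386 and Gm42047 56.8.

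**Figure D1:**
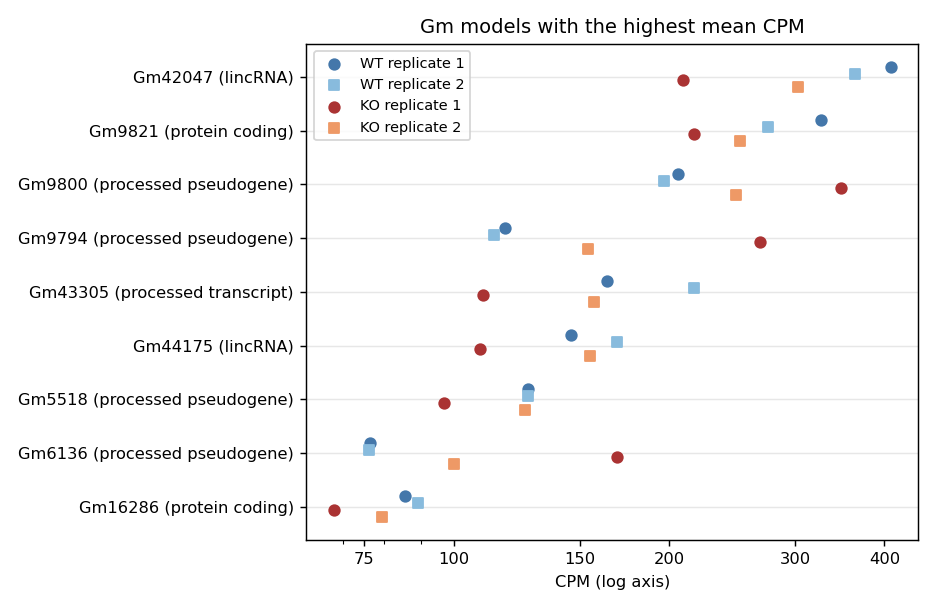
CPM (log axis) of 9 of the 10 Gm models with the highest mean, 1 point per library. KO replicate 1 is at the far end of the range in every row, low for lncRNAs such as Gm42047 (209 CPM) and high for models like ribosomal protein genes such as Gm9794 (268 CPM).

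Fold changes over the class were centred slightly below those of all genes. The median log2 fold change (KO minus WT) was -0.07 over the members and -0.0026 over the 15070 genes tested, with 540 members positive and 671 negative. The female pair gave -0.14 and the male pair -0.02. It was -0.05 without KO replicate 1, -0.12 without KO replicate 2 and -0.03 without WT replicate 1. Scaling by library totals alone moved the median of all genes to -0.08 and that of the members to -0.15, so the gap between them stayed near its size. Among members that share no exon base with another gene the median was 0.02, and -0.0094 without KO replicate 1.

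That median joins kinds whose medians had opposite signs. The lncRNA members had a median of -0.20 (142 positive, 317 negative), and in 183 of 459 both KO libraries were below both WT libraries, against 49 above (28.4% and 27.9% over all tested genes). The TEC models had a median of -0.14, or -0.04 without WT replicate 1. The protein-coding models had one of -0.13, or -0.07 without KO replicate 1 and -0.22 without KO replicate 2. The processed pseudogenes had a median of 0.24 (245 positive, 124 negative), with 145 of 369 above both WT libraries and 52 below (27.9% and 28.4% over all tested genes). In each kind the median of the female pair was farther from 0: -0.30 against -0.10 in the male pair for lncRNAs, and 0.30 against 0.13 for processed pseudogenes. Without KO replicate 2 the lncRNA median was -0.36. Without KO replicate 1 the medians were -0.11 for lncRNAs and 0.11 for processed pseudogenes, so the sign of each stayed and its size was smaller. The 232 lncRNA members with no shared exon base had a median of -0.12. It was near 0 without KO replicate 1 (-0.02) and in the male pair (-0.006). The 227 that share exon bases had one of -0.29, or -0.20 without KO replicate 1. The 51 lncRNA members annotated as processed transcripts had a median of -0.35 (-0.23 without KO replicate 1, -0.54 without KO replicate 2), with 45 of 51 below 0.

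Sequence likeness divided the members further. A look-alike was found for 441 members (36.4%), spread over 317 named genes, with a median identity of 98.8%. It was 98% or more in 266 members and complete in 47. Of the processed pseudogenes 346 of 369 had one, against 11 of 459 lncRNAs and 41 of 94 coding models. The 81 members like a ribosomal protein gene had a median log2 fold change of 0.66 (69 positive, 12 negative; 0.91 in the female pair, 0.32 in the male pair, 0.31 without KO replicate 1). The 9 like a mitochondrial gene had one of 1.12 (1.47 in the female pair, 0.75 in the male pair, 0.78 without KO replicate 1). In 9 of 9 both KO libraries were above both WT libraries, where 27.9% of all tested genes were. The same held for 27 of the 29 genes of the mitochondrial chromosome. The 351 members like other genes had a median of 0.13, or 0.04 without KO replicate 1. The 770 with no look-alike had one of -0.19 (251 positive, 519 negative), or -0.30 without KO replicate 2.

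Other genes of the table give the scale for these medians. The 470 Rik genes, models named after cDNA clones, had a median of -0.16, and the 87 named lncRNA genes one of -0.29, both more negative than the Gm models as a class. The 10110 named protein-coding genes had a median of 0.02. The 85 named ribosomal protein genes had one of 0.63, and the 29 genes of the mitochondrial chromosome one of 1.23. Without KO replicate 1 these were -0.09 (Rik genes), -0.17 (named lncRNA genes), 0.32 (ribosomal protein genes) and 0.63 (mitochondrial genes). Without KO replicate 2 the first pair were -0.26 and -0.44. These are descriptions of the 4 libraries, and no kind was tested against another.

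**Figure D2:**
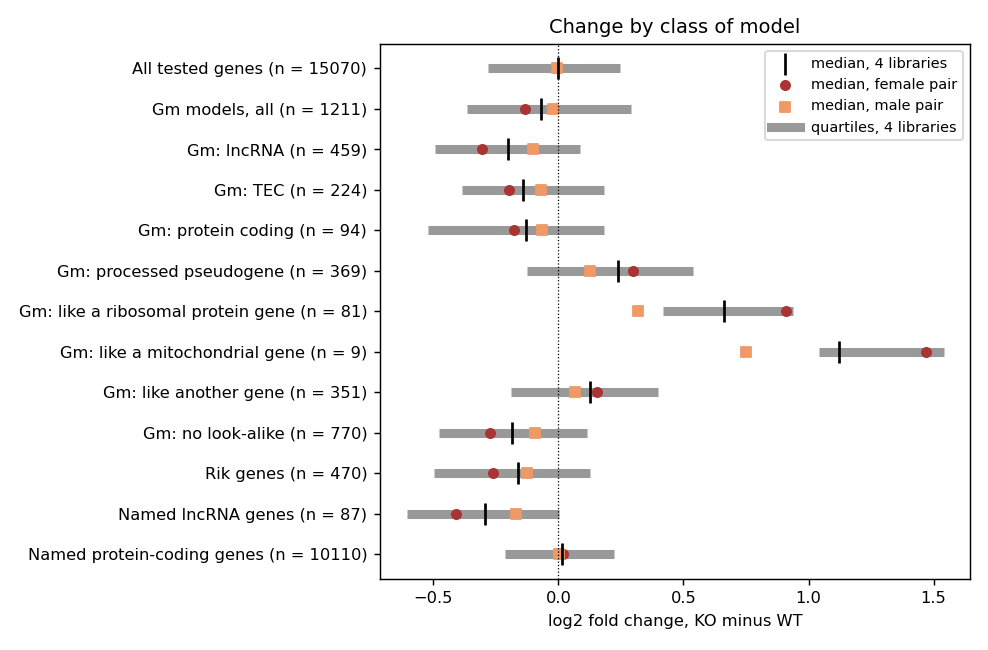
Log2 fold change (KO minus WT) by kind of gene. Black ticks are medians and grey bars quartiles over 4 libraries, and the points are medians of the female pair (KO replicate 1 minus WT replicate 1) and the male pair. Models like ribosomal protein genes (median 0.66) and mitochondrial genes (1.12) lie to the right, lncRNA models (-0.20) to the left, and the female pair is farther from 0 in every kind of Gm model.

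Single members were also compared library by library, with no test against the rest of the table. Both KO libraries were above both WT libraries in 259 members (21.4%), where 27.9% of all tested genes were. They were below in 361 members (29.8%), close to the 28.4% of all tested genes. The 620 members of both kinds became 887 without KO replicate 1 and 1041 without KO replicate 2, since 1 library overlaps less often than 2. The planned edgeR test, which has genotype alone and 2 residual degrees of freedom, called 1 gene higher (0.00664% of those tested) and 0% lower, and that gene was the member Gm33707. It called more members without KO replicate 1, and more still without KO replicate 2, but those fits rest on a single KO library. The share over all tested genes is not given for them. At an unadjusted p under 0.05 the planned test had 83 members higher (6.85%, against 8.14% of all tested genes) and 76 lower (6.28%, against 8.69%). DESeq2 with genotype alone gave 23 members higher and 9 lower of the 927 it tested, where it called 1.75% of its genes higher and 2.55% lower.

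With the replicate number as a term, here called the sex term, 39 members passed at an edgeR adjusted p under 0.05. This fit has 1 residual degree of freedom, and sex and anything else shared by a replicate number cannot be told apart in it. It called 25 members higher (2.06%) and 14 lower (1.16%), where it called 1.01% of all tested genes higher and 2.20% lower. Scaled by library totals alone it called 3 members higher and 6 lower, and with a robust dispersion 4 higher and 6 lower. The shares over all tested genes are not given for these settings, so no excess or deficit of members is read from them. Gm33707, Gm5900, Gm10499, Gm20033, Gm36266 and Gm16973 were among the called in both settings. Of the 25 higher members 24 had no overlap between genotypes, and so did all 14 lower ones. Over all tested genes 27.9% had both KO libraries above both WT libraries and 28.4% below. The called members were picked by their p from the same 4 libraries, so their lack of overlap is no separate support. In 21 of the 25 and in 14 of the 14 the female pair showed the larger change.

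Of the 25 members that rose, 21 had a look-alike: 12 were like ribosomal protein genes, 4 like mitochondrial genes and 5 like others. Gm14303, like Rps29 of the small ribosomal subunit, had 20.4 and 16.1 CPM in WT and 55.3 and 27.5 in KO (1.11 ± 0.18, adjusted p = 0.0194), and Rps29 itself had 195 and 164 against 409 and 256 (0.85, adjusted p = 0.0298). Gm10335, like Rpl23a, rose from 5.99 and 5.01 CPM to 19.4 and 9.25 (1.30 ± 0.25, adjusted p = 0.0259). Gm8430, like Rps27a, rose from 4.60 and 4.16 CPM to 15.1 and 6.29 (1.17 ± 0.29, adjusted p = 0.0488), where Rps27a had a sex-term log2 fold change of 0.39 and did not pass. Gm13456 is like Eef1a1, the translation elongation factor, and went from 6.12 and 7.94 CPM to 19.7 and 11.4 (adjusted p = 0.0464). KO replicate 1 was the highest library for each of these, and both KO values lay above both WT values.

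The 4 members that rose without a look-alike were Gm37099, Gm3716, Gm44067 and Gm18194. Gm37099, a TEC model on chromosome 1 (137764077 to 137767527), had 28 and 19 counts in WT and 76 and 56 in KO (1.71 ± 0.38, adjusted p = 0.0375). Gm3716, an intergenic lncRNA of 6 exons on chromosome 5, had 30 and 31 counts in WT and 72 and 77 in KO (1.51 ± 0.35, adjusted p = 0.0425). These are the members whose change in the male pair (1.83 and 1.63) exceeded that in the female pair (1.44 and 1.27), together with Gm18194 and Gm9242. Gm44067, a lncRNA 2131 bases from BC035044, had 46 and 57 counts in WT and 187 and 73 in KO, with KO replicate 1 far above the rest. Gm18194 had 14.9 and 20.8 CPM in WT and 20.9 and 39.9 in KO, and shares 333 exon bases with another gene on the other strand.

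Of the 14 members that fell, 11 had no look-alike and 6 share exon bases with another gene. Gm10499 (ENSMUSG00000073403), a transcribed pseudogene of 7 exons in the major histocompatibility complex on chromosome 17 (36141758 to 36145923), had 25.7 and 45.6 CPM in WT and 5.78 and 18.6 in KO (-1.69 ± 0.21, adjusted p = 0.00698). Its replicates differed within each genotype, with replicate 2 the higher, and the genotypes did not overlap. It resembles H2-Q4, a nonclassical class I gene, at 85.9% identity, and the nearest tested gene, H2-T10, fell as well (57.1 and 69.8 CPM in WT, 17.8 and 42.2 in KO; -1.19, adjusted p = 0.0196). Gm12966, like the splicing factor gene Srsf5, fell from 39.3 and 35.8 CPM to 13.8 and 24.5 (-1.02 ± 0.21, adjusted p = 0.0336), and Srsf5 fell from 971 and 1020 CPM to 275 and 608 (-1.28, adjusted p = 0.0295).

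The lncRNAs among those that fell were Gm20033, Gm44037, Gm36266, Gm16973, Gm49747, Gm21781 and Gm17491. Gm21781, a single-exon lncRNA on chromosome 10 (4391587 to 4396424) with no shared exon base, fell from 53.6 and 50.1 CPM to 18.3 and 33.6 (-1.05 ± 0.20, adjusted p = 0.0274). Gm20033 spans 64708207 to 64804117 on chromosome 5 and overlaps Klf3, a zinc finger factor gene, on the other strand. It fell from 15.8 and 21.5 CPM to 3.48 and 10.6 (-1.56 ± 0.26, adjusted p = 0.0196), while Klf3 had 290 and 309 CPM in WT and 290 and 273 in KO. Gm16973 overlaps Mphosph8, whose protein belongs to the HUSH silencing complex, and fell from 22.4 and 24.9 CPM to 7.67 and 14.5 (-1.15 ± 0.21, adjusted p = 0.0235), while Mphosph8 had a sex-term log2 fold change of -0.01. Gm36266 overlaps Pcolce, a procollagen processing gene that went from 8.90 and 12.6 CPM to 6.44 and 5.28 and did not pass. The lncRNA itself fell from 10.6 and 15.3 CPM to 3.40 and 7.22 (-1.35 ± 0.24, adjusted p = 0.0204). For each of the 7 lncRNAs KO replicate 1 was the lowest library.

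Gm37829, a TEC model that partly overlaps 2900076A07Rik on the other strand, fell from 7.34 and 8.04 CPM to 1.46 and 4.35 (-1.54 ± 0.34, adjusted p = 0.0365), and the Rik gene fell with it (18.2 and 21.3 CPM to 5.73 and 11.4; adjusted p = 0.0207). Gm35339, a coding model of 24 exons that lies 52 bases from Maf1, a repressor of RNA polymerase III, fell from 32.7 and 23.9 CPM to 9.44 and 15.2 (-1.21 ± 0.24, adjusted p = 0.0302), while Maf1 did not pass. Gm12258, a coding model of 6 exons on chromosome 11, fell from 92.2 and 108 CPM to 48.4 and 73.5 (-0.74 ± 0.15, adjusted p = 0.0277).

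**Figure D3:**
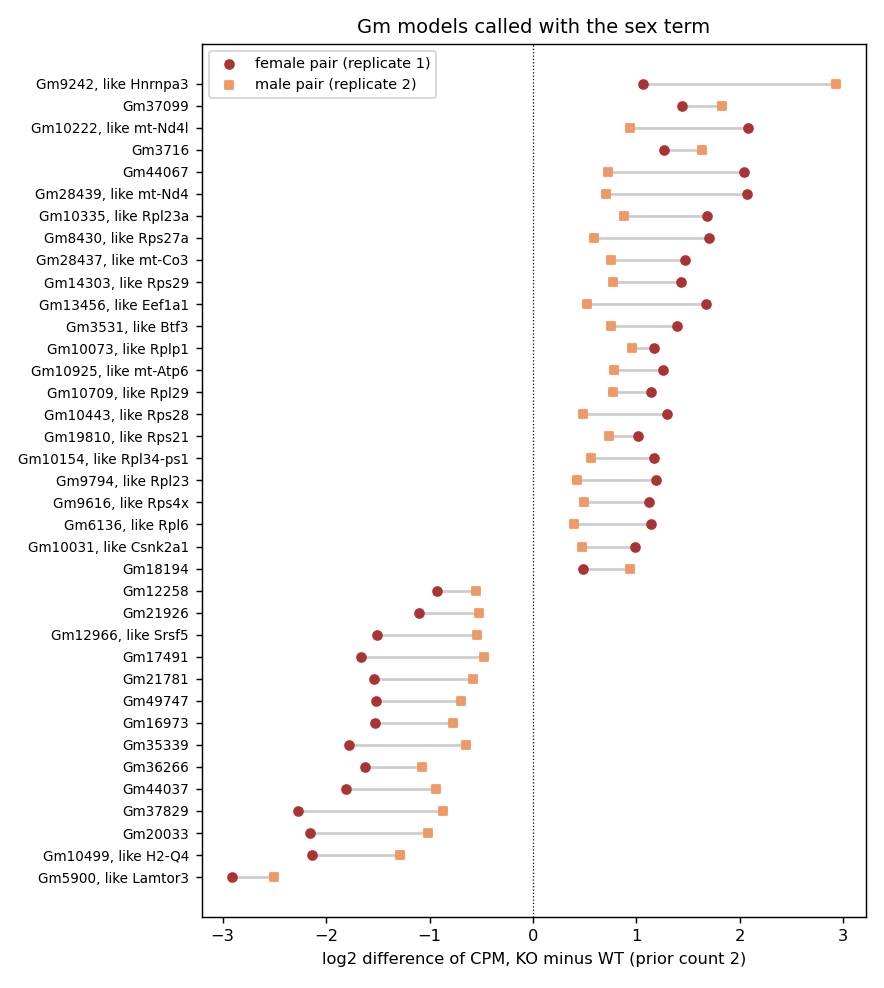
Log2 difference of CPM (KO minus WT, prior count 2) within the female and the male pair for the Gm models called with the sex term, other than Gm33707 and 1 model not reported here, each with its look-alike where it has one. Both pairs lie on the same side of 0 in every row, and Gm5900 (-2.91 and -2.50) and Gm9242 (1.06 and 2.93) are the far ends.

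Few of the called members have a promoter in the RefSeq table of start sites (GRCm38.p6, 250 bases before to 50 after the start), which matched 193 members, among them 4 of the 14 that fell and 1 of the 25 that rose. The promoter of Gm12258, chr11:58846912-58847211 on the plus strand, is printed because it has the highest CPM of the fallen members with an entry, with CG dinucleotides in capitals.
Gm12258: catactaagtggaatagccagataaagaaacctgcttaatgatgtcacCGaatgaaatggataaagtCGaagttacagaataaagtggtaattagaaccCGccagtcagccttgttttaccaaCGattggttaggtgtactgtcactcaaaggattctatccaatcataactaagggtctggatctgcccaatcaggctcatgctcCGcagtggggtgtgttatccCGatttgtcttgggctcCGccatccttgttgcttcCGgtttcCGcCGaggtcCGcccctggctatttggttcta
It holds 11 CG dinucleotides, and 36.3% of the matched members hold 10 or more, against 44.5% of the 25748 autosomal promoters in the table. Letters were searched on both strands, and none of the motifs contains another. The letters TATAAA occurred in 14.0% of the members' promoters and in 14.2% of all. The letters CCAAT occurred in 40.4% and 37.8%, and Gm12258 holds them. The letters GGGCGG occurred in 27.5% and 36.3%, and Gm12258 holds these too.

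Over all pairs, members and their look-alikes had related fold changes, but within the ribosomal protein pairs the relation was weak. Over 416 members whose look-alike was tested, leaving out Gm33707, Pearson's r between the pair's log2 fold changes was 0.565, and 291 of 416 pairs had the same sign. With Gm33707 it was 0.395, and without KO replicate 1 it was 0.370. The points share their libraries and scaling, several members share a look-alike, and genes are not independent replicates, so no p is given. Split by identity, r was 0.787 over 46 pairs with complete identity and 0.643 over 218 pairs of 98% to under 100%. It was 0.451 over 110 pairs of 90% to under 98%, and 0.208 over 42 pairs of 80% to under 90%. Without KO replicate 1 the first and last of these were 0.595 and 0.0893. These groups of pairs differ in kind of gene as well as in identity. Copies of mitochondrial genes such as Gm28439 and Gm10222, which rose with their look-alikes, are at complete identity. What this mix does to r was not tested. Among the 77 ribosomal protein pairs 67 were positive on both sides, with medians of 0.67 for the models and 0.61 for the genes. Within these pairs r was only 0.113, so the size of change of a gene told little of its copy. It was 0.300 over the 331 pairs like other genes, Gm33707 among them, and 0.621 over the 9 mitochondrial pairs.

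**Figure D4:**
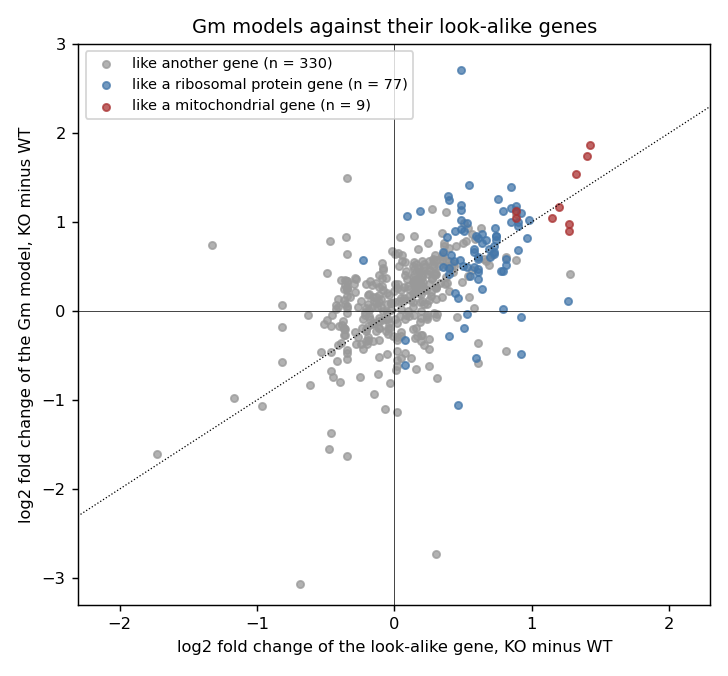
Log2 fold change (KO minus WT) of 416 Gm models against that of the named gene each resembles, 1 point per model, with the line of equal change dotted. Pairs of ribosomal protein and mitochondrial genes fill the upper right, the far point at the bottom left is Gm5900 (-3.07), and r over all points is 0.565.

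The copies of mitochondrial genes form a block. Of the 9 members, 7 lie next to each other on chromosome 1 in 4663 bases (24611535 to 24616197), and the other 2 lie on chromosome 2. Gm28439 (like mt-Nd4, complex I) had 85 and 110 counts in WT and 347 and 138 in KO, and Gm10222 (like mt-Nd4l) had 35 and 33 against 148 and 50. Gm28437 (like mt-Co3, complex IV) had 150 and 176 against 401 and 227, and Gm10925 (like mt-Atp6, ATP synthase) had 250 and 301 against 576 and 395. All 4 rose with the sex term, with log2 fold changes of 1.41, 1.6, 1.12 and 1.03 and edgeR adjusted p-values of 0.0375, 0.0413, 0.0336 and 0.0274. Their look-alikes on the mitochondrial chromosome had 1.21, 1.29, 1.15 and 1.12. KO replicate 1 was the highest library for each of the 9, as it was for the share of mitochondrial transcripts.

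A shared parent did not give a shared value in every family. Hnrnpa3, which encodes an RNA-binding protein, had 13 members, the largest family, and their log2 fold changes ran from -1.63 to 1.49 while Hnrnpa3 had -0.35. Gm9242 of this family had 76 and 9 counts in WT and 154 and 64 in KO, so KO replicate 2 lay below WT replicate 1. It rose with the sex term (1.84 ± 0.43, edgeR adjusted p = 0.0425) and not in the planned test (adjusted p = 0.424). Gm7551 had 65 and 56 counts in WT and 31 and 3 in KO and did not pass (adjusted p = 0.0765 with the sex term). The 8 members like Hmgb1 ran from -0.52 to 0.27. The 4 like Rpl21-ps15 were all positive, and Gm10155 among them had 10 and 13 counts in WT, 122 in KO replicate 1 and 9 in KO replicate 2, a log2 fold change of 2.71 made by a single library.

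The relation with neighbouring genes was weaker than that over all look-alike pairs. For the 770 members with no look-alike, r with the nearest tested gene that is no Gm model was 0.156. It was 0.202 over 543 members whose gene body overlaps that gene, 0.109 over 143 members within 10000 bases, and 0.00363 over 84 members farther away. Where exons overlap on the other strand it was 0.318 (270 members), and 130 of these pairs were negative on both sides against 37 positive on both. Fragments that overlapped exons of both genes were left out of the counts, and the strand of the others is not known. What this does to r was not tested.

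The most extreme member was Gm33707 (ENSMUSG00000102298), a processed pseudogene of 569 bases on chromosome 3 (60769887 to 60770455). It had 0 counts in each WT library and 1424 and 1287 counts in KO, or 62.8 and 59.6 CPM. Against a floor of 3 counts in each WT library, KO was at least 526-fold higher, and it was called by edgeR in the planned test (adjusted p = 0.00223) and with the sex term (3.22e-08). It is the member with no count in 1 whole genotype, and no member was at 0 in both KO libraries. Eno1 had 368 and 293 CPM in WT and 503 and 357 in KO and did not pass (adjusted p = 0.238 with the sex term). The nearest tested gene, the splicing regulator gene Mbnl1, lies 140137 bases away on the other strand and had 498 and 473 CPM in WT and 933 and 764 in KO (adjusted p = 0.0464 with the sex term). The log2 differences of Gm33707 in the 2 pairs were 9.56 (female) and 9.49 (male). With 0 counts in WT they are set by the KO values and the prior count of 2. They cannot be compared with the pair differences of members that have WT counts.

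At the other end, Gm5900 had 52 and 48 counts in WT and 5 in each KO library, a log2 fold change of -3.07 ± 0.53 (SE) with the sex term (edgeR adjusted p = 0.0204, and 0.267 in the planned test). Its counts summed to 110, so it reached the sum of 100 through WT, where it was high. Its place at this end is not separate from that choice. Lamtor3, at 99.5% identity, fell less, from 73.6 and 74.5 CPM to 41.6 and 50.3 (-0.69, adjusted p = 0.0320 with the sex term). Gm9522, like Gapdh at 85.8% identity, had 1253 and 989 counts in WT, 0 in KO replicate 1 and 287 in KO replicate 2. Its planned log2 fold change was -2.73 ± 1.27, it did not pass (adjusted p = 0.323, and 0.0628 with the sex term), and Gapdh had 80.5 and 78.3 CPM in WT and 109 and 86.4 in KO. Gm9522 is thus a model of high counts in 3 libraries that was absent, within the floor of 3 counts, from the other.

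The remaining extremes had few counts, and most of these came from the genotype where they were high. They thus reached the sum that chose the members largely through that genotype. Gm10101, a lncRNA 98 bases from Cgrrf1, had 31 and 64 counts in WT and 5 and 20 in KO. Gm16172, antisense to Tmem63b, had 67 and 56 in WT and 10 and 24 in KO, and Tmem63b fell with the sex term (77.2 and 69.4 CPM to 33.8 and 52.2; edgeR adjusted p = 0.0384). Gm23301, a small nucleolar RNA model within Rpl17, had 27 and 55 against 2 and 20. Upwards, Gm28438, like mt-Nd3, had 18 and 18 against 86 and 28, and the small nucleolar RNA model Gm24439 had 23 and 46 against 136 and 57. None of these 5 passed with the sex term (adjusted p of 0.0576 to 0.105). Over the 9 small nucleolar RNA members the median was -0.75, or -0.52 without KO replicate 1 and -1.35 without KO replicate 2. In 7 of them both KO libraries were below both WT libraries and in 2 above, where 28.4% and 27.9% of all tested genes were.

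**Figure D5:**
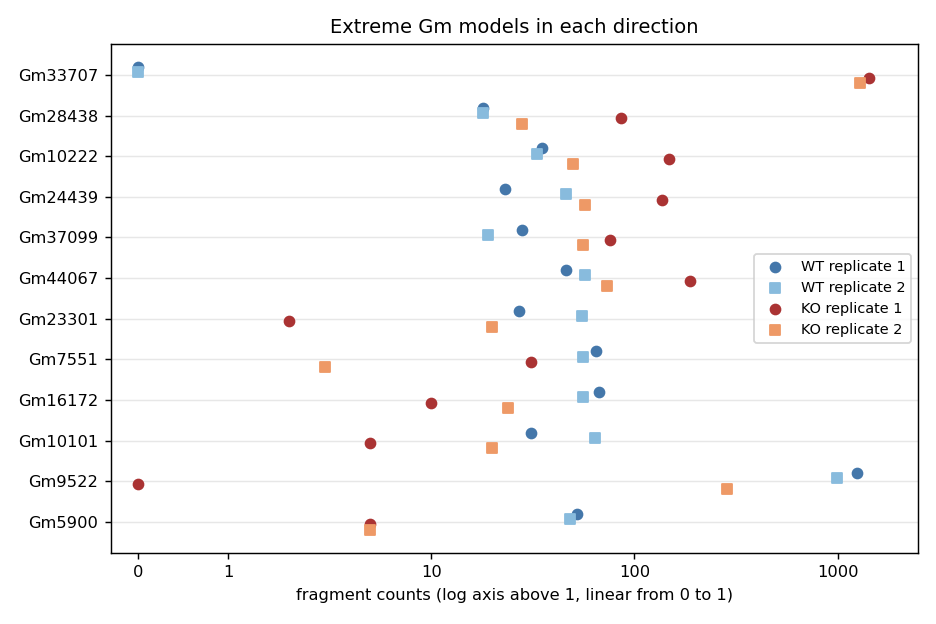
Counts in each library for the 6 Gm models with the highest and the 6 with the lowest log2 fold change among those whose genotypes do not overlap (log axis above 1, linear from 0 to 1). Gm33707 is at 0 in both WT libraries, Gm9522 is at 0 in KO replicate 1 alone, and the others run from 2 to 187 counts.

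Nearly every member was detected in each genotype. Of 1211 members 1209 had at least 1 count in all 4 libraries, the exceptions being Gm33707 and Gm9522. At least 10 counts were found in both WT libraries for 1208 members and in both KO libraries for 1197. The sum of 100 that chose the members makes this likely, so the wider set is given too. Of the 23489 autosomal Gm models, 5439 and 5474 had at least 1 count in WT replicates 1 and 2, against 5088 and 5064 in KO. At the depth of the smallest library the numbers expected from the same counts were 5335 and 5188 in WT and 4940 and 5064 in KO. Both KO libraries were then still below both WT libraries. This step scales library totals alone. Mitochondrial transcripts took 3.30% and 2.03% of KO counts against 1.33% and 1.45% in WT. Ribosomal protein genes took 5.02% and 3.66% against 2.91% and 2.97%. What these shares do to detection of other genes was not tested. At full depth, at least 1 count in both WT libraries and none in KO was found for 243 models, and the reverse for 136. These numbers are not adjusted for depth, and no share over other genes is given beside them.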

How the data were processed

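RNA-seq of 4 libraries, WT replicates 1 and 2 and KO replicates 1 and 2, was analysed from 1 table of raw fragment counts per gene that the authors deposited, with gene coordinates and exon lengths in bases. Poly-T beads took messenger RNA from total RNA and the kit does not mark strand, per the labels' protocols. Per the file headers, the authors counted paired fragments over exons of Ensembl 98 with featureCounts 1.6.3, without strand and with no option for multi-mapped or multi-overlapping fragments. The submitters' processing notes name FastQC, Trim Galore 0.5.0, HISAT2, featureCounts 1.6.4, DESeq2 and the build GRCm38.

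GENCODE M21 (GRCm38), which is older than the table's annotation, gave symbols, kinds and transcript sequences (55154 of 56239 identifiers matched, 98.1%). Promoters came from RefSeq (GRCm38.p6). Counts kept by filterByExpr (15070 genes, all 1211 members among them) were scaled by TMM factors (0.919 to 1.04) and tested in R 4.3.3 with edgeR 4.0.16's quasi-likelihood test, Benjamini-Hochberg adjusted over all tested genes. The sex-term fit adds the replicate number. Pair differences are log2 CPM with a prior count of 2. Look-alikes were found with blastn 2.17.0 (expectation value at most 1e-10, best hit by score). DESeq2 1.42.0 was an alternative, and the edgeR fits were tested on simulated data. The labels do not say that replicate numbers pair animals, so the planned test has no block.

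Besides Chaf1b, the text names the 10 members with the highest mean CPM, among those called with the sex term up to 10 a direction by size of change, the 6 highest and 6 lowest with no overlap between genotypes, those at 0 in a genotype and the 3 just inside and outside the sum. Of their look-alikes and nearest genes the text names a part, including each nearest gene that passed with the sex term. Gm12258, Gm12966, Gm13456, Gm14303, Gm18194, Gm10155, Gm10925 and Gm17491 are named outside this rule, after their values were seen. A member with a high CPM is not reported here. The members and lists were chosen with earlier results of these data known.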

Additional observations from a re-analysis of the deposited data

Results flagged for a closer look

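Gm48621, a TEC model just inside the sum of 100 counts, had a lower value in KO in the male pair and nearly none of that difference in the female pair. The female pair had a log2 difference (KO minus WT) of 0.00419 and the male pair one of -0.445, from 25 and 33 counts in WT and 24 and 18 in KO. With 1 pair per sex the difference was not tested.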

How the results depend on the processing

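Replicate numbers share a sex but no stated animal or batch. The difference between replicates 1 and 2 in WT correlated with that in KO over 14584 autosomal genes (r = 0.384), which with 2 numbers does not show pairing. The planned count of 1 called member became 39 with the replicate block, 106 with no low-count filter and 32 with DESeq2, and ran from 1 to 266 when each library was left out in turn. The sex-term count of 39 became 9 with library totals, 10 with robust dispersion, 24 with DESeq2, 137 with no filter and 1 without the block. With 3 libraries that fit leaves no residual degrees of freedom and was not run. All members called under those settings, and all 31 with RLE size factors, were among the 39, apart from those with no filter, where the 39 were among the 137. The members' median log2 fold change of -0.07 ran from -0.12 to -0.03 over the libraries left out, was -0.15 with library totals and 0.0186 for members with no shared exon base. The difference in share of counts ran from -0.0715 to -0.0115 percentage points over the libraries left out and reversed to 0.00677 for members with no shared exon base. The 620 members with no overlap became 854 to 1041 over the libraries left out, where the share over all tested genes is not given. With a sum of 200 or more, 761 members were detected in both WT and 762 in both KO libraries, since fewer members qualify. Gm8900 ran from -0.679 to 0.0396 over the libraries left out, reversed without KO replicate 1. The causes of the other changes were not tested. Depth limits members near the sum of 100, where a library held about 25 counts.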

Other observations

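Outside the class, a few autosomal Gm models with fewer than 100 counts in all were at 0 in both libraries of a genotype and had at least 5 counts in each library of the other. Gm38326, an intergenic lncRNA on chromosome 3 (60788361 to 60794730), had 11 and 13 counts in KO and none in WT, and the pseudogene Gm17228 on chromosome 17 had 5 and 6. The member Gm33707 (60769887 to 60770455), also at 0 in WT, lies nearer to Gm38326 than to Mbnl1. In the other direction the antisense models Gm30489, Gm47545 and Gm17546 had 6 and 5, 12 and 6, and 5 and 5 counts in WT and none in KO. The pseudogene Gm3851 had 8 and 6 counts in WT, and Gm23111, a small nuclear RNA model, had 6 and 6. A count of 0 allows up to 3 counts, so these differences are small, and the models were listed after their values were seen.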
